A study of Mus musculus with 15 samples.

Results

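This report compares muscle 4 days after cardiotoxin, called the Proliferation Stage, with Uninjected muscle, gene by gene. A gene entered the comparison when 3 or more of the 7 libraries held it at 0.5 FPKM or above, which was so for 13166 of the 56748 gene identifiers in the table. FPKM is the number of sequenced fragments per kilobase of transcript, scaled here by a factor per library that was not the fragment total. The Proliferation Stage had 4 libraries and Uninjected had 3, out of 15 in the whole series. All mice were male C57BL/6 of 8 weeks with no engineered allele named, and all drank deuterium-labelled water. The Proliferation Stage mice received 50 µL of cardiotoxin at 0.1 mg/mL in PBS with 0.2% Meloxicam, an anti-inflammatory drug, into the Tibialis Anterior (TA) of one limb. The Uninjected libraries are labelled non-CTX Injected, and the sources describe both mice that never received cardiotoxin and a contralateral limb that was not injected. RNA came from frozen, enzymatically purified muscle fibers with the cells that stayed attached to them, so each library mixes fibers with other cells. Removal of CD45-positive blood cells is described for the study's protein samples and is not stated for these RNA samples.

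Cardiotoxin is a snake venom peptide that breaks down the fiber membrane and leaves most satellite cells, the stem cells of muscle, alive. In the days that follow, phagocytes clear the dead fibers, satellite cells divide and become myoblasts, and myoblasts fuse into new fibers that first build embryonic forms of the contractile proteins and later replace them with adult ones. The comparison asks which transcripts mark the early, proliferative part of that sequence. Because these are bulk samples, fewer cells of a type and less RNA per cell cannot be told apart.

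The labelled tissue held its defining markers. The 5 fiber markers Acta1, Ckm, Mylpf, Tnnt3 and Ttn summed to 42579 to 67726 FPKM in Uninjected and 5529 to 45936 FPKM in the Proliferation Stage. Fragments in genes, recovered from the step size of low FPKM values, numbered 5198418 to 7209330 in the Proliferation Stage and 2302641 to 4455116 in Uninjected. The 4 Proliferation Stage libraries did not move equally far. Over the genes called higher, the median distance from the Uninjected mean was 2.05 (log2) in replicate 1, 1.78 in replicate 3, 1.36 in replicate 4 and 1.14 in replicate 2. Summed FPKM followed the same order, from 168508 in replicate 1 through 230633 in replicate 3 and 294860 in replicate 4 to 385621 in replicate 2, against 469399 to 492337 in Uninjected. The deposited values were not scaled to fragment totals, so these sums depend on the scaling. Mitochondrially encoded genes held 5.09% of summed FPKM in replicate 1, 9.28% in replicate 3, 18.9% in replicate 4 and 19.98% in replicate 2, against 24.6% to 38.02% in Uninjected. Nothing in the labels says that the mice of a group differ beyond their subject numbers.

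At 4 days, 2649 genes were higher than in Uninjected (20.1% of those tested) and 1192 were lower (9.05%), at an adjusted p under 0.05 in limma on log2(FPKM + 0.5) with Benjamini-Hochberg adjustment over all 13166 genes. Genes under this threshold are referred to as called. Of these, 2190 were at least 2-fold higher and 731 at least 2-fold lower. Among the genes called higher, 276 were listed at 0 in every Uninjected library. They passed the filter only through the Proliferation Stage and so had to differ. The range of all Proliferation Stage libraries lay above that of all Uninjected libraries for 3373 genes (25.6%) and below it for 2257 genes (17.1%). The split depended on the scaling. The deposited values gave 2649 higher and 1192 lower calls with a median difference of 0.05 over all genes, quantile normalization gave 1895 higher and 1840 lower with a median of -0.15, rescaling each library to the same total (TPM) gave 4711 and 169 with a median of 0.89, and leaving mitochondrial genes out of that total gave 3267 and 363 with a median of 0.57. Without Proliferation Stage replicate 2 there were 3270 higher and 2177 lower calls, and without replicate 3 there were 1603 and 241. Leaving out 1 Uninjected library gave 1604 to 1816 higher and 256 to 391 lower calls. For a single gene, the smallest exact two-sided permutation p that 4 against 3 libraries allow is 0.0286.

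**Figure D1:**
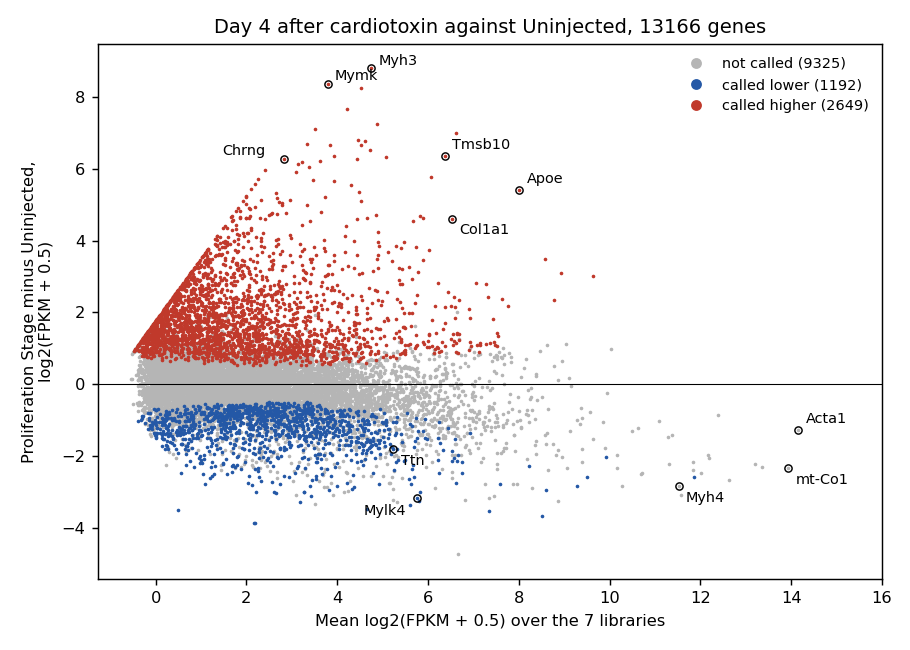
Each point is 1 of 13166 genes, with its mean log2(FPKM + 0.5) over 7 libraries on the x axis and the difference, Proliferation Stage minus Uninjected, on the y axis. Red points are the 2649 genes called higher and blue points the 1192 called lower, and the most abundant fiber genes, Acta1 and mt-Co1, lie below 0 but are grey (not called).

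**Figure D2:**
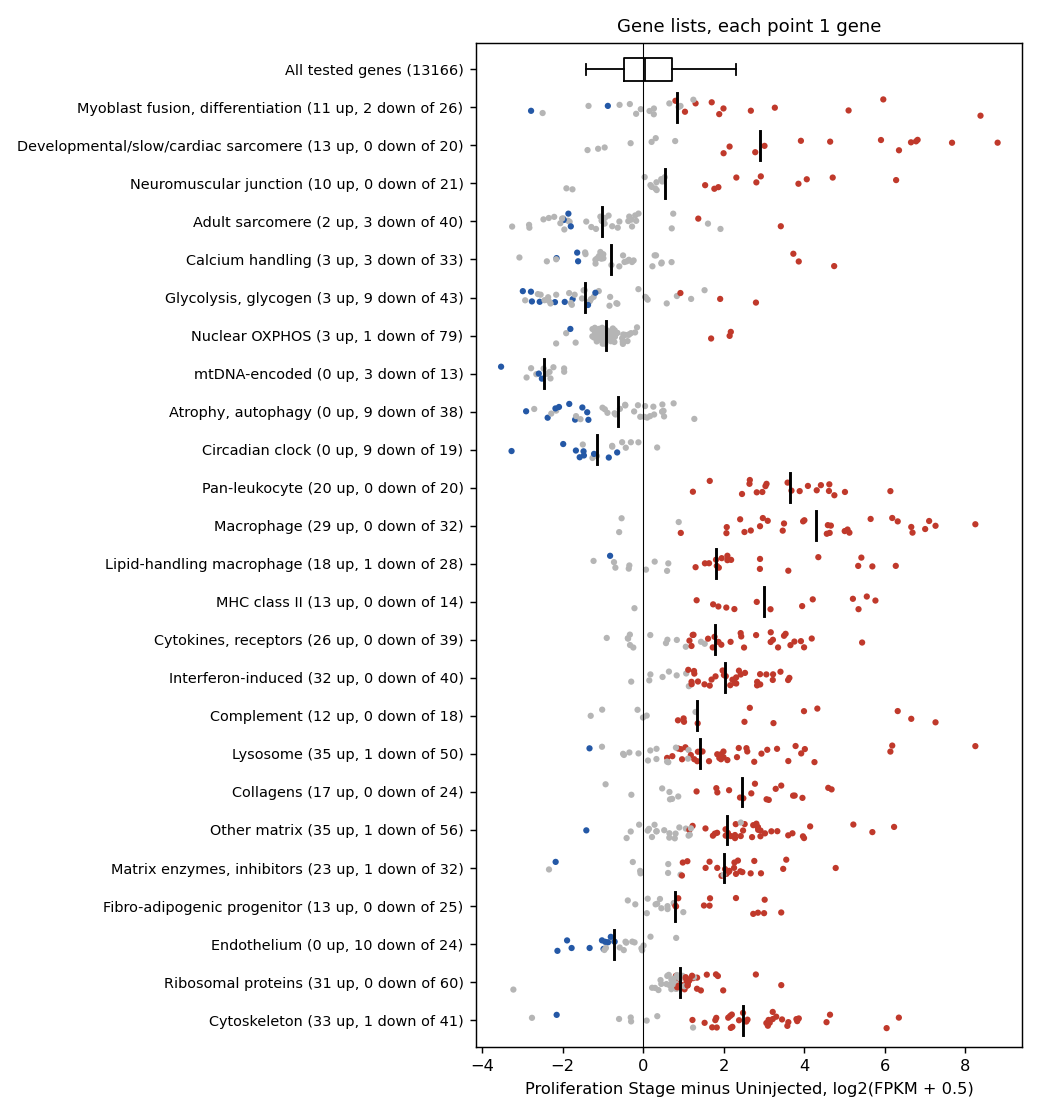
Differences (log2, x axis) of the genes of 25 lists, 1 point per gene, red where called higher, blue where called lower and grey where not called, with a black bar at each list's median. The box at the top gives the quartiles, median and 5th to 95th percentile of all tested genes, and the macrophage list (median 4.28) and the list of mitochondrially encoded genes (median -2.47) lie at opposite ends.

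Genes of the postsynaptic membrane, the acetylcholine receptor first, were among those that rose. The acetylcholine receptor of muscle is a pentamer whose fetal form holds the gamma subunit and whose adult form holds the epsilon subunit in its place, and fibers without a nerve spread the receptor over their whole surface. Chrng, the gamma subunit, stood at 52.02, 46.9, 57.9 and 29.6 FPKM in the Proliferation Stage and at 0, 0 and 0.307 FPKM in Uninjected. The groups were far apart, with a difference of 6.29 ± 0.29 (log2, SE) and an adjusted p of 1.8e-05 in limma (exact permutation p = 0.0286). Chrng passed the filter on low values only through the Proliferation Stage and so had to differ. Chrna1, the alpha subunit that binds acetylcholine, stood at 144, 109, 150.1 and 76.8 FPKM against 2.53, 6.69 and 3.55 FPKM (difference 4.71 ± 0.36). Chrnd, the delta subunit, stood at 23.5, 18.4, 25.6 and 12.7 FPKM against 1.001, 0.769 and 0.855 FPKM (difference 3.86 ± 0.25). Chrne, the adult epsilon subunit, stood at 0.257, 8.66, 1.29 and 5.04 FPKM against 5.84, 14.1 and 9.52 FPKM, so that replicates 1, 3 and 4 lay below every Uninjected library and replicate 2 did not, and it was not called (adjusted p = 0.119, and 0.0311 without replicate 2). Of 21 tested genes of the list, 10 were higher and 0 lower, with a median difference of 0.53 against 0.05 over all genes, and 10 were also higher in each fit that left out 1 library. Ncam1, an adhesion molecule that spreads over fibers without a nerve, rose by 4.06 ± 0.36 (log2), Runx1, a transcription factor induced by denervation, by 2.92 ± 0.35, and Musk, the receptor kinase that clusters acetylcholine receptors, by 1.77 ± 0.26. The anchoring genes Rapsn and Dok7 were not called (differences 0.33 and 0.54). A Schwann cell list of 11 tested genes had 3 called higher (27.3%, against 20.1% of all genes), Ncam1 among them. Sox10, a transcription factor that defines these cells, was not called. It stood at 0.231 to 0.717 FPKM in the Proliferation Stage and 0.502 to 1.08 FPKM in Uninjected.

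The sequences just upstream of receptor genes are printed because these members moved together apart from the epsilon subunit. Chrnd had no start in the RefSeq table and is not printed. Each printed sequence is the 250 bases before the RefSeq start (GRCm38.p6, 5′ to 3′ on the gene's strand). Capitals mark CAGCTG, a form of the E-box that myogenic factors bind and that reads the same on both strands. In GENCODE, Chrng starts at base 87204657, so its window lies inside the annotated gene. Chrne ends there at base 70619216, inside its window. Chrng (chr1:87205561-87205810, plus strand) and Chrna1 (chr2:73580339-73580588, minus strand) hold 2 matches each, Chrne (chr11:70619195-70619444, minus strand) holds 1 and Chrnb1 (chr11:69795938-69796187, minus strand), the beta subunit that both receptor forms share, holds 0.
Chrng: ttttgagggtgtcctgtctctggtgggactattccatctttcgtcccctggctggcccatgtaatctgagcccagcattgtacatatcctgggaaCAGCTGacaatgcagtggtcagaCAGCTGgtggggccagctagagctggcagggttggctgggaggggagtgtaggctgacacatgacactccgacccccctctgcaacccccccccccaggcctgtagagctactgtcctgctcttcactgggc
Chrna1: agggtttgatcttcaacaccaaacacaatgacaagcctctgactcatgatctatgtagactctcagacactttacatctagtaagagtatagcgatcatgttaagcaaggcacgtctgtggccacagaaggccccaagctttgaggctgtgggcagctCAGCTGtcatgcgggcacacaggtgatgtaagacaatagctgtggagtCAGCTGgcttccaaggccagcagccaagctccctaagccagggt
Chrne: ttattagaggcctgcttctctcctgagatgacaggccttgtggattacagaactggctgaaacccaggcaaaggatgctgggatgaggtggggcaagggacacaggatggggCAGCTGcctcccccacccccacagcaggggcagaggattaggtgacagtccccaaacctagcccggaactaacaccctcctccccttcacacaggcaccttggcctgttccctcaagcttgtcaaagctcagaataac
Chrnb1: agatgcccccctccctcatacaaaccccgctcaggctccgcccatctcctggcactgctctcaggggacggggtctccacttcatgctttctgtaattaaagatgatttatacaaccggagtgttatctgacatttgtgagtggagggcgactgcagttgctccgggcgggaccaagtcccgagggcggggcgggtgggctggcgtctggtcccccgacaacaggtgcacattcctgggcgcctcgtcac
The motif is present in 13.0% of all 32851 promoters of this length in the RefSeq table. It is present in 7 of 23 promoters of the synapse list, 8 of 25 of the list of embryonic, perinatal and slow sarcomere genes and 4 of 26 of the fusion list. Lists with few higher calls held it as often, with 9 of 30 promoters of the adult sarcomere list, 9 of 23 of the calcium list and 8 of 25 of the list of sarcolemmal channels, pumps and energy buffers, and these are descriptions of sequence only. The called gene Chrnb1 (difference 1.54) had none in this window and the uncalled gene Chrne had one.

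Myh3, the embryonic myosin heavy chain, and the fusion gene Mymk held the 2 largest rises on the log2(FPKM + 0.5) scale among called genes of at least 10 FPKM whose groups did not overlap. Mymk (chromosome 2, bases 27061636 to 27072179, GRCm38), which encodes Myomaker, a membrane protein that myoblasts need in order to fuse, stood at 205, 168, 189.5 and 117 FPKM in the Proliferation Stage and was listed at 0 in each Uninjected library, where 1 fragment in a gene of 1 kb was worth 0.255 to 0.506 FPKM. Mymx (chromosome 17, bases 45600971 to 45602102, GRCm38), which encodes the small fusion protein Myomixer, stood at 59.9, 32.4, 21.97 and 20.9 FPKM and was likewise listed at 0 in each Uninjected library. No fold can be given against 0 for either gene. Adjusted p in limma was 1.82e-06 for Mymk and 4.3e-05 for Mymx. Both passed the filter on low values only through the Proliferation Stage, so they had to differ. Genes of the satellite cell, from which myoblasts come, were higher as well, 11 of 20 with 0 lower and a median of 1.17. Pax7, the transcription factor that defines these cells, stood at 3.77, 1.14, 2.53 and 1.92 FPKM against 0.561, 0.173 and 0.131 FPKM (difference 1.80 ± 0.35), and Vcam1, an adhesion molecule that macrophages can also carry, at 4.32, 1.69, 3.997 and 2.46 FPKM against 0.325, 0.05702 and 0.144 FPKM (difference 2.37 ± 0.32). The groups were apart for these genes, whereas Cdh15, the M-cadherin, had one library at the Uninjected level and was not called (difference 0.93 ± 0.38). Of 26 tested fusion and early myocyte genes, 11 were higher and 2 lower, with a median of 0.84, and leaving out 1 library gave 8 to 13 higher. Cdkn1c, a cell cycle inhibitor that marks myoblasts leaving the cycle, stood at 131, 117, 164 and 101 FPKM against 10.7, 15.6 and 12.03 FPKM, and the groups did not overlap (difference 3.27 ± 0.27), although 30.7% of its exon bases are shared with another annotated gene. Of 20 tested sarcomere genes of embryonic, perinatal and slow fibers, 13 were higher and 0 lower, with a median of 2.90. Myh8, the perinatal myosin heavy chain, stood at 73.9, 77.97, 178 and 101 FPKM against 1.08, 0.559 and 0.629 FPKM, which is a clear separation with replicate 3 highest (difference 6.36 ± 0.33). Tnnt1, the slow troponin T, stood at 133, 142, 248 and 162 FPKM against 4.67, 0.2295 and 0.695 FPKM (difference 6.66 ± 0.61), and Tnnt2, the cardiac form that embryonic muscle also uses, at 56.3, 49.1, 55.7 and 35.8 FPKM against 0.478, 0.196 and 0.297 FPKM (difference 5.91 ± 0.22). Replicate 3 was the highest Proliferation Stage library for Myh8, Tnnt1, Myh3, Tnni1 and Myl4, whereas replicate 1 was the highest for Mymk, Mymx and Myog. The slow and cardiac light chain Myl2 was in this list and was not called (difference -0.31), nor was the slow light chain Myl3 (-1.12).

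Across several enzyme and structural families, the form that adult fibers use fell or did not pass the test while a second form rose. Because a ratio of 2 genes within 1 library does not change with the scaling of that library, 11 such pairs are given as ratios, chosen after their values were seen and described without a test. In all 11 the lowest Proliferation Stage ratio lay above the highest Uninjected ratio, and the ratio of the group medians ran from 12.9 to 574 over the 10 pairs in which it can be formed. Ribosomal protein L3 has a muscle paralog, Rpl3l, that replaces Rpl3 in adult fibers. The Rpl3 to Rpl3l ratio was 85.5, 0.265, 3.61 and 0.473 in Proliferation Stage replicates 1 to 4 and 0.0168, 0.0251 and 0.0254 in Uninjected. The ratio was highest in replicate 1 and lowest in replicate 2, and the same order, 1 then 3 then 4 then 2, held for each of the 11 pairs. Rpl3 itself stood at 158, 79.7, 109.9 and 75.3 FPKM against 6.995, 10.7 and 9.49 FPKM (difference 3.43 ± 0.32, adjusted p = 0.000288), and Rpl3l at 1.85, 301, 30.5 and 159 FPKM against 417, 426 and 373 FPKM, which was not called (adjusted p = 0.12, and 0.0400 without replicate 2).

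**Figure D3:**
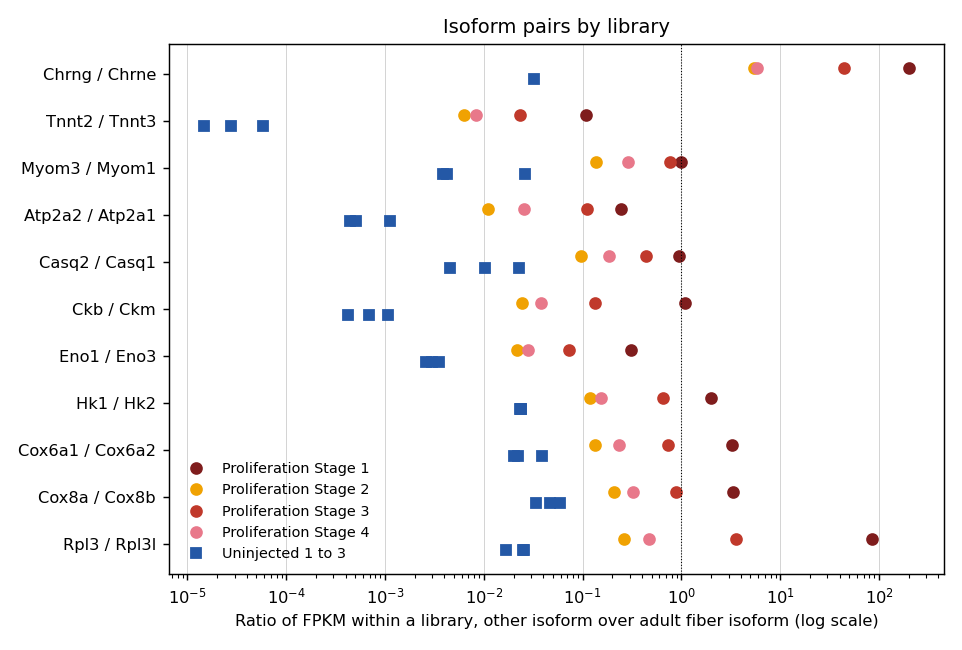
FPKM ratio within a library (log axis) of a second isoform to the isoform of adult fibers for 11 gene pairs, with circles for the 4 Proliferation Stage libraries and squares for the 3 Uninjected libraries. In every pair the circles lie to the right of the squares, with replicate 1 farthest right and replicate 2 nearest to Uninjected, and the Chrng to Chrne ratio of 0 in Uninjected replicates 1 and 2 is not drawn.

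The pairs covered membrane, contractile and metabolic proteins. Atp2a2 (SERCA2), the calcium pump of slow and developing fibers, stood at 82.1, 58.01, 165 and 104 FPKM against 9.06, 4.66 and 5.21 FPKM (difference 3.87 ± 0.39), beside the fast-fiber pump Atp2a1 (SERCA1) at 333, 5282, 1480.4 and 4030.1 FPKM against 8002, 10478 and 10119 FPKM, whose groups did not overlap and which was not called (adjusted p = 0.0986). Of the exon bases of Atp2a1, 21.9% are shared with another gene, and of those of Ckm, named below, 15.5%. Casq2, the cardiac and slow calsequestrin that stores calcium, rose by 3.73 ± 0.45, while Casq1 of fast fibers differed by -1.06 ± 0.79 and was not called. Sln, sarcolipin, a small inhibitor of these pumps, stood at 10.7, 24.1, 42.7 and 39.03 FPKM against 2.18, 0 and 0.194 FPKM, with replicate 1 lowest (difference 4.75 ± 0.65). Ckb, the brain form of creatine kinase, stood at 128, 73.7, 90.5 and 59.4 FPKM against 3.84, 2.27 and 3.09 FPKM (difference 4.60 ± 0.30, adjusted p = 6.34e-05), and the muscle form Ckm at 119, 3009, 675 and 1571 FPKM against 3611, 5384 and 4519.8 FPKM (not called, adjusted p = 0.0979). Among ubiquitous subunits of cytochrome c oxidase with a muscle counterpart, Cox6a1 and Cox8a rose by nearly the same amount, 2.15 ± 0.30 and 2.18 ± 0.28. Their muscle forms Cox6a2 and Cox8b differed by -2.16 ± 0.96 and -1.68 ± 0.86 and were not called. Eno1, the alpha enolase, rose by 2.80 ± 0.31 and Hk1, the hexokinase of most tissues, by 1.91 ± 0.26, whereas Eno3 and Hk2 of muscle differed by -1.48 ± 0.82 and -1.70 ± 0.72 and were not called. Without replicate 2, Atp2a1, Ckm, Cox6a2, Cox8b and Hk2 were called lower, at adjusted p 0.0304 to 0.0452.

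Genes of the adult fast fiber lay lower on average, the 4 Proliferation Stage libraries spread widely, and most of these genes were not called. Myh4, the fastest myosin heavy chain, stood at 178, 5007, 1005 and 2888 FPKM in the Proliferation Stage and 6939.8, 12103 and 8868 FPKM in Uninjected. The difference of -2.84 ± 1.11 was not called (adjusted p = 0.084, and 0.0306 without replicate 2). Acta1, the skeletal actin, stood at 3516, 26871, 13611 and 18762 FPKM against 24982, 38083 and 29728 FPKM, where replicate 2 reached the Uninjected range (difference -1.29 ± 0.99, adjusted p = 0.336), and the difference was 0.57 after quantile normalization. Of 40 tested genes of the adult sarcomere, 2 were higher and 3 lower (7.5%, against 9.05% of all genes), with a median of -1.03, and after rescaling to TPM 6 were higher and 0 lower with a median of -0.14. The 3 lower ones were the giant or M-band proteins Ttn, Neb and Myom1. Ttn, the molecular spring titin, stood at 7.43, 32.4, 21.99 and 40.2 FPKM against 78.7, 84.3 and 67.2 FPKM (difference -1.80 ± 0.52, adjusted p = 0.0355), and Neb, the thin filament ruler nebulin, at 17.1, 85.03, 54.3 and 119.8 FPKM against 217, 243 and 201 FPKM (difference -1.97 ± 0.61). Of 33 tested genes of calcium handling, 3 were higher (9.09% against 20.1% of all genes) and 3 lower (9.09% against 9.05%). The median was -0.53 after quantile normalization and 0.10 after rescaling to TPM. Among the lower ones were Ryr1, the calcium release channel (-2.15 ± 0.67), and Cacna1s, the voltage sensor of the T-tubule (-1.64 ± 0.53). Another gene shares 19.985% of the exon bases of Cacna1s. Mylk4, a striated muscle kinase of the myosin light chain kinase family, fell further, to 4.33, 60.5, 11.6 and 55.7 FPKM from 220.4, 195 and 164 FPKM (difference -3.18 ± 0.85). The calls of Ttn, Neb, Ryr1, Cacna1s and Mylk4 were lost without Proliferation Stage replicate 3 or without any 1 of the Uninjected libraries (adjusted p up to 0.124), and that of Myom1 also without replicate 4 (up to 0.132). Without replicate 2, 12 of the 40 sarcomere genes and 11 of the 33 calcium genes were lower. The macrophage markers Csf1r, Adgre1, Cd68, Lyz2 and C1qa moved the other way in the same libraries, at a sum of 793 to 1988 FPKM against 4.21 to 14.3 FPKM, and their part in the fiber values was not tested.

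**Figure D4:**
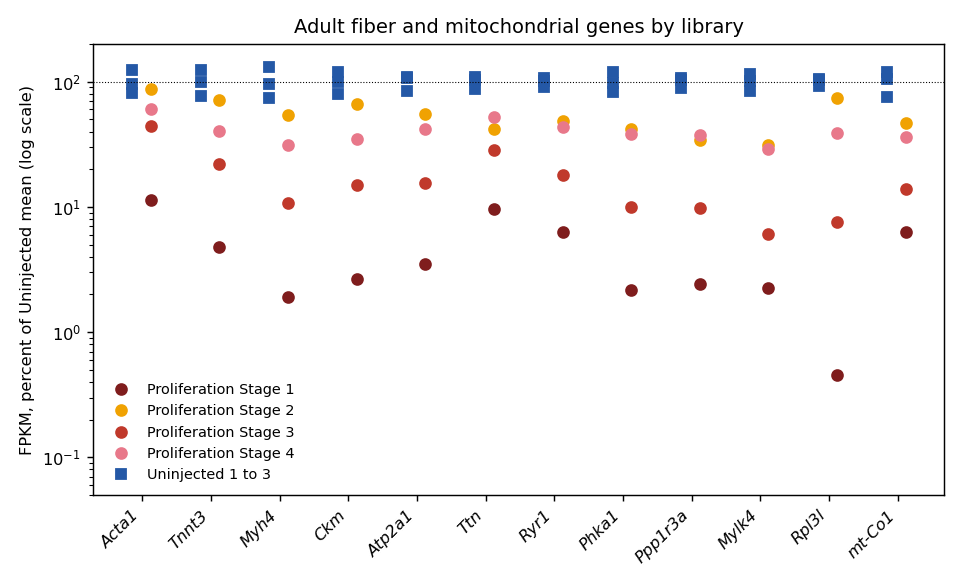
FPKM of 12 adult fiber and mitochondrial genes in each library as percent of the Uninjected mean (log axis), with circles for Proliferation Stage replicates 1 to 4 and squares for Uninjected. Replicates 1 and 3 lie below replicates 2 and 4 for every gene shown, and for Myh4 the circles run from 178 to 5007 FPKM.

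Genes of energy metabolism also lay lower on average, by amounts that depended on the scaling. Of 43 tested genes of glycogen breakdown and glycolysis, 3 were higher (6.98%, against 20.1% of all genes) and 9 lower (20.9%, against 9.05%). The median was -1.46 (-0.58 after rescaling to TPM, with 6 higher and 5 lower), and leaving out 1 library gave 1 to 23 lower. Pfkfb3, which makes the activator of phosphofructokinase, stood at 3.31, 3.85, 2.41 and 4.67 FPKM against 22.8, 71.7 and 18.2 FPKM, and here all 4 Proliferation Stage libraries were low and close together (difference -2.99 ± 0.45, adjusted p = 0.00266). Phka1, the muscle regulatory subunit of phosphorylase kinase, stood at 3.29, 63.04, 14.99 and 57.8 FPKM against 125, 179.9 and 146 FPKM (difference -2.79 ± 0.91), and Ppp1r3a, which anchors a phosphatase to glycogen, at 1.35, 18.9, 5.47 and 20.8 FPKM against 49.7, 57.9 and 59.2 FPKM (difference -2.77 ± 0.78). Fbp2, the muscle fructose bisphosphatase, differed by -2.57 ± 0.81 and was called. Of 79 tested nuclear genes of the respiratory chain, 3 were higher (3.80%, against 20.1% of all genes). The 1 lower gene (1.27%, against 9.05%) was Ndufa12 (-1.81 ± 0.45). The median was -0.94, and without replicate 2 the count of lower genes was 37. After rescaling to TPM that median was -0.04 with 0 lower. Of 30 tricarboxylic acid cycle and pyruvate entry genes, 2 were higher (6.67%, against 20.1% of all genes) and 3 lower (10%, against 9.05%). Among the lower ones was Mpc1, a subunit of the mitochondrial pyruvate carrier (-1.61 ± 0.52), with 23.1% of its exon bases shared with another gene. The count of lower genes was 19 without replicate 2 and 0 after rescaling to TPM, where the median went from -1.19 to -0.31. All 13 mitochondrially encoded protein genes differed downward, with a median of -2.47 (-1.02 after quantile normalization and -1.58 after rescaling to TPM), and 3 were called. Of these, mt-Nd5, a subunit of complex I, stood at 590.2, 2859.9, 1394 and 3609.6 FPKM against 12032, 8443 and 10797 FPKM (difference -2.59 ± 0.78). The most abundant, mt-Co1, stood at 2543, 18826, 5539 and 14421 FPKM against 48380, 30391 and 41862 FPKM and was not called (adjusted p = 0.102). Without replicate 2, 12 of the 13 were called lower, and without replicate 3 none were. The calls of Phka1, Ppp1r3a, Fbp2, Mpc1 and mt-Nd5 were lost without replicate 3 or any 1 Uninjected library (adjusted p up to 0.131) and that of Ndufa12 without replicate 3 or Uninjected replicates 1 or 3 (up to 0.0805).

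Several genes that brake growth or promote loss of muscle fell. Mstn, the secreted growth inhibitor myostatin, stood at 0.777, 6.06, 1.66 and 3.56 FPKM against 11.9, 25.1 and 25.6 FPKM (difference -2.79 ± 0.55, adjusted p = 0.00856), and all 4 Proliferation Stage libraries lay below the lowest Uninjected one. Fbxo32, the ubiquitin ligase Atrogin-1, stood at 1.97, 20.9, 4.57 and 19.01 FPKM against 42.4, 45.8 and 131 FPKM, again without overlap (difference -2.91 ± 0.79). Trim63, the ligase MuRF1 that is usually read beside it, stood at 13.5, 102, 22.96 and 59.3 FPKM against 67.9, 119 and 209 FPKM, the groups overlapped, and it was not called (adjusted p = 0.101, and 0.0275 without replicate 2). Ddit4, an inhibitor of the mTOR pathway, stood at 26.1, 58.7, 12.5 and 18.3 FPKM against 82.5, 197 and 131 FPKM (difference -2.37 ± 0.53). Of 38 tested genes of atrophy ligases and autophagy, 0 were higher and 9 lower, with a median of -0.63 (0.25 after rescaling to TPM, where 7 were higher and 4 lower). Leaving out 1 library gave 1 to 16 lower, the fewest without Uninjected replicates 2 or 3. Foxo4, of the FoxO family of transcription factors, was among the lower ones (-1.51 ± 0.36). Of 12 polyamine genes, 4 were higher (33.3%, against 20.1% of all genes) and 2 lower (16.7%, against 9.05%). Fits without 1 library gave 1 to 4 higher. Amd1, which makes the donor for polyamine synthesis, stood at 9.39, 72.4, 10.8 and 34.7 FPKM against 168, 300.3 and 129.9 FPKM (difference -3.02 ± 0.70), and Sat1, which acetylates polyamines for breakdown and export, at 34.2, 17.3, 29.8 and 18.9 FPKM against 2.22, 3.46 and 3.41 FPKM (difference 2.82 ± 0.29), so that in 7 of 7 libraries the 2 genes separated the groups in opposite directions. The call of Fbxo32 was lost without replicate 3 or any 1 Uninjected library (adjusted p up to 0.104), that of Ddit4 without Uninjected replicates 2 or 3 (0.0599), that of Amd1 without replicate 3 or Uninjected replicates 1 or 2 (0.0668), and that of Foxo4 without replicate 3 or Uninjected replicates 2 or 3 (0.0634).

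Macrophage transcripts were close to 0 in Uninjected and abundant at 4 days. Csf1r, the receptor for the macrophage growth factor CSF1, stood at 48.9, 21.2, 36.5 and 19.6 FPKM against 0.499, 0.526 and 0.177 FPKM (difference 5.08 ± 0.34, adjusted p = 6.9e-05), with 15.1% of its exon bases shared with another gene. Adgre1, which encodes the F4/80 antigen, stood at 48.3, 12.3, 29.3 and 14.4 FPKM against 0.635, 0 and 0 FPKM, and Cd68, a lysosomal protein of phagocytes, at 138, 34.8, 63.5 and 38.2 FPKM against 0, 1.61 and 0 FPKM. Replicates 1 and 3 held the most and replicates 2 and 4 the least for these 3 genes, the reverse of the fiber genes. Of 32 tested macrophage genes, 29 were higher and 0 lower, with a median of 4.28, and 27 to 29 were higher in the fits that left out 1 library. Nos2 and Lyve1 were among the 3 that were not called, and Arg1 was among 3 of the list's 35 genes below the filter, with at most 4.43 FPKM in a library. All 20 tested genes of leukocytes in general were higher, with a median of 3.64, in every fit that left out 1 library. Ptprc, the CD45 antigen, stood at 4.94, 1.34, 4.02 and 1.89 FPKM against 0.0225, 0 and 0.0279 FPKM, far below Laptm5, a lysosomal protein of blood cells, at 86.7, 35.2, 65.4 and 41.9 FPKM against 0.217, 0.401 and 0.202 FPKM, and both separated the groups. A gene that passes the filter on low values only through the libraries where it is high had to differ, so these counts are descriptions.

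Genes of lipid-handling phagocytes rose with them, although unequally between libraries. Apoe, a lipid carrier that macrophages secrete, stood at 1851, 855, 1638 and 1063 FPKM against 34.05, 31.9 and 23.8 FPKM (difference 5.42 ± 0.40). Lgals3, the lectin galectin-3, stood at 213, 124, 144 and 96.3 FPKM against 0.221, 2.45 and 2.200 FPKM (difference 6.28 ± 0.51). Spp1, the secreted protein osteopontin, stood at 368, 14.2, 56.9 and 40.7 FPKM against 0.998, 0.307 and 0.775 FPKM, with replicate 1 far above the others (difference 5.70 ± 0.92, adjusted p = 0.00367, exact permutation p = 0.2). Another gene shares 18.75% of the exon bases of Spp1. Gpnmb and Trem2, a glycoprotein and a lipid receptor of phagocytes, rose by 5.34 ± 0.54 and 4.35 ± 0.37. Of 28 tested genes in this list, 18 were higher and 1 lower, with a median of 1.82. Lysosomal genes rose broadly, 35 of 50 higher and 1 lower with a median of 1.42. Grn, the lysosomal precursor progranulin, stood at 179, 68.3, 130.1 and 77.2 FPKM against 5.56, 4.66 and 4.93 FPKM, and Lgmn, an endopeptidase, at 248, 82.1, 138 and 102 FPKM against 10.3, 8.06 and 8.69 FPKM, and neither overlapped between groups. Ctsd, a cathepsin that Uninjected muscle also held at 161, 175 and 195 FPKM, stood at 417, 244, 228 and 237 FPKM and was not called (adjusted p = 0.204). Of its exon bases, 34.4% are shared with another gene. The 1 lower lysosomal gene was Tfeb, a transcription factor of lysosome formation (-1.33 ± 0.42, call lost without any 1 library except Proliferation Stage replicate 2, adjusted p up to 0.136). Of 18 complement genes, 12 were higher and 0 lower. C1qa and C1qc, which encode chains of the first component, stood at 356, 151, 251 and 171 FPKM against 4.35, 2.92 and 0.737 FPKM and at 165, 72.6, 119 and 78.9 FPKM against 0.426, 0.786 and 0.397 FPKM.

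Antigen presentation, chemokine and interferon genes were also higher. Cd74, the invariant chain that guides MHC class II molecules, stood at 328, 394, 467 and 310.3 FPKM against 8.33, 6.93 and 4.26 FPKM (difference 5.77 ± 0.31), and H2-Ab1, a class II beta chain, at 88.6, 108, 128 and 89.9 FPKM against 3.04, 0.985 and 1.49 FPKM (difference 5.56 ± 0.32). These 2 genes were highest in replicate 3 and varied less among the 4 libraries than the macrophage genes. Of 14 tested genes of class II molecules and dendritic cells, 13 were higher and 0 lower, with the same counts in each fit that left out 1 library. Ccl8, a chemokine that attracts monocytes, stood at 25.8, 11.7, 33.1 and 20.04 FPKM and was listed at 0 in each Uninjected library. Cxcl16 stood at 18.5, 8.695, 13.2 and 8.37 FPKM against 0.272, 0 and 0.254 FPKM, with 18.3% of its exon bases shared with another gene. Of 39 tested cytokine, chemokine and receptor genes, 26 were higher and 0 lower. The interferon list had 32 of 40 genes higher and 0 lower, with a median of 2.03. Irf7, the factor that amplifies type I interferon, stood at 18.8, 10.4, 37.8 and 18.3 FPKM against 1.09, 0.402 and 2.300 FPKM, Isg15, an inducible ubiquitin-like protein, at 25.5, 15.5, 52.4 and 34.4 FPKM against 1.17, 4.32 and 2.18 FPKM, and Ifitm3, a membrane protein that blocks viral entry, at 246, 139, 253 and 163 FPKM against 40.04, 27.6 and 41.1 FPKM. All 3 separated the groups, with replicate 3 highest. Within the proteasome, 5 of 38 genes were higher (13.2%, against 20.1% of all genes). They were the 3 inducible catalytic subunits Psmb8, Psmb9 and Psmb10 (1.88 to 2.16) and the 2 interferon-induced activator subunits Psme1 and Psme2 (0.73 and 1.08). Without replicate 3 there were 3 such calls, and after rescaling to TPM 16 of the 38 genes were higher, so that the restriction to these subunits depended on the scaling. The 1 lower proteasome gene was Psme4, another activator (-1.49 ± 0.31), and the remaining 32 were not called.

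Other blood cells left few transcripts. Only 3 of 19 neutrophil genes passed the filter. Ly6g, a defining marker, was at 0 in all 7 libraries, S100a8 was at 0 in the 3 Uninjected libraries and reached at most 1.67 FPKM, and the 4 defining markers summed to 1.77 to 9.65 FPKM in the Proliferation Stage. That sum was mostly Csf3r, at 6.31, 1.51, 5.17 and 1.71 FPKM, a receptor that monocytes also carry. Of 28 genes of T, NK and B cells, 9 passed the filter, among them Gzma and Nkg7, proteins of cytotoxic granules, at 1.297, 1.93, 3.78 and 3.07 FPKM and at 1.27, 2.51, 2.52 and 1.21 FPKM. Both were listed at 0 in Uninjected and so passed only through the Proliferation Stage. The T cell markers Cd3e, Cd3g and Cd3d summed to 0.257 to 0.432 FPKM against 0.0626 to 0.372 FPKM, and the B cell markers Ms4a1 and Cd79a stood at most at 0.0117 and 0.249 FPKM in a library. Red blood cell genes had 0 calls in 6 tested, with defining markers at 41.1 to 99.3 FPKM against 42.6 to 102 FPKM.

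Most extracellular matrix genes rose, with replicate 2 below the other Proliferation Stage libraries. Col3a1, a fibrillar collagen of repairing tissue, stood at 299, 114, 277 and 281 FPKM against 16.3, 12.2 and 2.76 FPKM (difference 4.68 ± 0.60), and Col1a1, the main collagen of scar, at 725, 128, 446 and 408 FPKM against 38.2, 16.6 and 4.51 FPKM (difference 4.60 ± 0.77). Postn, the matrix protein periostin, stood at 138, 18.4, 123 and 117 FPKM against 1.23, 0.174 and 0.4697 FPKM (difference 6.23 ± 0.70, adjusted p = 0.00073). In each of these, replicate 2 was the lowest Proliferation Stage library and still lay above Uninjected. Of 24 tested collagen genes, 17 were higher and 0 lower, with a median of 2.45, and the basement membrane chains Col4a1 and Col4a2 were not called (0.87 and 0.65). Of 56 tested glycoprotein and proteoglycan genes, 35 were higher and 1 lower, with a median of 2.08. Tnc, tenascin-C of remodelling tissue, stood at 51.4, 1.202, 17.7 and 19.7 FPKM against 0.741, 0.2603 and 0.131 FPKM, and its call was lost without replicate 3 or any 1 Uninjected library (adjusted p up to 0.0759). Fn1, fibronectin, rose by 3.60 ± 0.60, Bgn, the proteoglycan biglycan, by 3.97 ± 0.46, and Serpinh1, the collagen chaperone HSP47, by 2.81 ± 0.49. Fmod, the proteoglycan fibromodulin, was the 1 lower gene (-1.41 ± 0.42), and it lost the call without Proliferation Stage replicates 2, 3 or 4 or Uninjected replicates 1 or 3 (up to 0.0976). Of 32 tested proteases and inhibitors, 23 were higher and 1 lower (14 higher without Uninjected replicate 3). Timp1, an inhibitor of matrix metalloproteinases, stood at 60.2, 10.7, 24.1 and 20.98 FPKM against 2.32, 0 and 0 FPKM, and its relative Timp3 moved the opposite way, to 1.63, 2.86, 1.72 and 4.68 FPKM from 14.2, 12.9 and 12.4 FPKM (difference -2.18 ± 0.31), with 21.3% of its exon bases shared with another gene. Mmp14, a membrane-bound collagenase, rose by 3.48 ± 0.37. Of 25 genes of fibro-adipogenic progenitors, the resident fibroblasts of muscle, 13 were higher and 0 lower, with 6 higher without Uninjected replicate 3. Pdgfra, the receptor that defines them, stood at 3.72, 1.55, 3.84 and 3.61 FPKM against 1.15, 0.555 and 0.586 FPKM (difference 1.51 ± 0.32, call lost without Uninjected replicates 2 or 3, up to 0.0513). Their defining markers Pdgfra, Dpt, Pi16 and Ly6a summed to 75.9 to 134 FPKM against 33.9 to 56.8 FPKM, none at 0, and their part in the matrix values was not tested.

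Several endothelial genes lay lower. Flt1, the VEGF receptor 1, stood at 1.32, 3.71, 1.51 and 3.31 FPKM against 12.8, 6.93 and 10.5 FPKM (difference -1.89 ± 0.36), and Ptprb, the endothelial phosphatase VE-PTP, at 1.73, 3.62, 2.18 and 3.93 FPKM against 13.3, 8.69 and 10.3 FPKM (difference -1.78 ± 0.29). Erg, an endothelial transcription factor, stood at 2.49, 2.09, 1.99 and 2.100 FPKM against 7.001, 5.98 and 5.67 FPKM, with the 4 Proliferation Stage libraries within 1.99 to 2.49 FPKM (difference -1.33 ± 0.17, adjusted p = 0.00135). Of 24 tested endothelial genes, 0 were higher and 10 lower, with a median of -0.72. This count depended on the scaling and on single libraries, being 10 after quantile normalization, 3 lower and 1 higher with a median of 0.12 after rescaling to TPM, and 4 without replicate 3. Cdh5, the junction protein VE-cadherin, stood at 21.8, 14.6, 18.9 and 18.3 FPKM against 45.9, 25.6 and 41.4 FPKM (difference -0.99 ± 0.27, call lost without Proliferation Stage replicates 3 or 4 or Uninjected replicates 1 or 3, adjusted p up to 0.0973, and -0.11 after rescaling to TPM). Pecam1, the antigen CD31, differed by -0.58 ± 0.19 and was not called, and its difference was 0.29 after rescaling to TPM. Aqp1, a water channel of capillaries, differed by -2.13 ± 0.64 (call lost without Proliferation Stage replicate 3 or any 1 Uninjected library, up to 0.118). Markers of the vessel wall divided. Acta2, the smooth muscle actin that myofibroblasts and myoblasts also express, stood at 301, 132, 223 and 132 FPKM against 36.5, 27.6 and 29.4 FPKM (difference 2.56 ± 0.37), while Myh11, the smooth muscle myosin, stood at 1.59, 3.67, 1.197 and 3.02 FPKM against 8.01, 7.32 and 6.15 FPKM (difference -1.50 ± 0.33) and Rgs5, of pericytes, at 26.7, 44.7, 44.1 and 48.9 FPKM against 119, 81.6 and 100 FPKM (difference -1.29 ± 0.30). Without Uninjected replicate 1 the calls of Myh11 and Rgs5 were lost (adjusted p 0.0503 and 0.0583), and that of Rgs5 also without Uninjected replicate 3. Scx, a transcription factor of tendon, stood at 19.7, 15.3, 18.6 and 11.5 FPKM against 2.05, 3.28 and 3.44 FPKM (difference 2.29 ± 0.25), and Tnmd, a second tendon marker, was not called.

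Many genes of growing cells rose, those of the cytoskeleton among them. Tmsb10, the actin-binding thymosin beta 10, stood at 707, 481, 624 and 419 FPKM against 7.09, 7.53 and 4.404 FPKM (difference 6.35 ± 0.32). Tubb2b and Tubb6, both beta tubulins, stood at 66.5, 57.3, 85.6 and 44.6 FPKM against 0.359, 0.661 and 0.334 FPKM and at 255, 201.7, 309.8 and 191 FPKM against 11.3, 7.47 and 8.39 FPKM. None of the 3 overlapped between groups, and of 41 tested cytoskeleton genes 33 were higher and 1 lower, with a median of 2.48. Vim, the intermediate filament vimentin, stood at 352, 105, 159 and 124 FPKM against 15.2, 16.3 and 12.5 FPKM, with replicate 1 highest. The 1 lower gene was Pfn2, a profilin (-2.15 ± 0.65, call lost without Proliferation Stage replicate 3 or any 1 Uninjected library, adjusted p up to 0.114). Of 60 ribosomal protein genes, 31 were higher and 0 lower, by smaller amounts, with a median of 0.91. That count was 49 after quantile normalization, 59 after rescaling to TPM and 6 without Uninjected replicate 1. Rpl41 stood at 465, 366, 308 and 302 FPKM against 32.7, 68.4 and 57.5 FPKM, the largest of them after Rpl3. In the endoplasmic reticulum, 16 of 33 genes were higher (48.5%, against 20.1% of all genes) and 3 lower (9.09%, against 9.05%). Pdia3, a disulfide isomerase that folds secreted proteins, rose by 2.31 ± 0.42, while the 3 lower genes were Herpud1 (-1.05 ± 0.32), Dnajb9 and Atf4, the translation-stress factor (-0.96 ± 0.30), and leaving out 1 library gave 5 to 20 higher and 0 to 4 lower. The calls of Herpud1 and Atf4 were lost without any 1 library except Proliferation Stage replicate 2 (adjusted p up to 0.146). Of 23 cell cycle genes 16 were higher, and replicate 1 stood above the others. Rrm2, which supplies deoxynucleotides, stood at 19.1, 4.64, 5.86 and 4.05 FPKM against 1.04, 0.183 and 0.0922 FPKM, and Ccnb2, a mitotic cyclin, at 17.2, 0.921, 3.76 and 3.06 FPKM against 0, 0.3304 and 0.334 FPKM. The cell cycle count was 4 after quantile normalization and 3 without Uninjected replicate 2, and the call of Ccnb2 was lost without Proliferation Stage replicate 3 or any 1 Uninjected library (adjusted p up to 0.0946). The macrophage sum given above was also higher in the Proliferation Stage than in Uninjected, and its part in these lists was not tested. The ribosomal list summed to 11295, 12994, 11731 and 10228 FPKM in replicates 1 to 4, against 5120 to 7476 FPKM in Uninjected.

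Of 32 tested genes of the insulin-like growth factor and the activin and myostatin axis, 17 were higher and 3 lower, with a median of 1.22, and 11 were higher without Proliferation Stage replicate 3. H19, a maternally expressed noncoding RNA that is abundant in fetal muscle, stood at 760.4, 963, 2118 and 1449 FPKM against 151, 128 and 153 FPKM (difference 3.09 ± 0.47), with replicate 3 highest. Igf2, its paternally expressed neighbor and a fetal growth factor, stood at 3.88, 1.36, 8.77 and 4.44 FPKM against 0.216, 0.354 and 0.134 FPKM (difference 2.59 ± 0.48), with 64.5% of its exon bases shared with another gene. Igf1 stood at 5.72, 1.74, 4.82 and 3.800 FPKM against 1.45, 0.4596 and 0.309 FPKM (difference 1.88 ± 0.42, call lost without Uninjected replicates 2 or 3, adjusted p up to 0.062). Among the higher genes of the list, Grb10 (2.77), Peg3 (2.56), Plagl1 (2.93) and Meg3 (2.15) are known to be imprinted and were named after their values were seen. Igfbp2, an IGF-binding protein, stood at 7.69, 5.63, 8.79 and 3.94 FPKM and was listed at 0 in each Uninjected library. Fstl1, a secreted follistatin-like glycoprotein, stood at 90.4, 22.3, 65.4 and 64.7 FPKM against 7.03, 5.56 and 3.64 FPKM. In the Notch pathway, 7 of 20 genes were higher (35%, against 20.1% of all genes) and 1 lower (5%, against 9.05%). The counts of higher genes over fits without 1 library were 1 to 9. Hes6, an inhibitor of Hes1 that favors differentiation, stood at 69.8, 61.7, 56.98 and 32.7 FPKM against 4.09, 4.197 and 2.83 FPKM (difference 3.69 ± 0.30), and the lower gene was the endothelial ligand Dll4 (-1.14 ± 0.23).

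Several circadian genes fell. Of 19 tested circadian genes, 0 were higher and 9 lower, with a median of -1.15, and 4 were lower after rescaling to TPM and 3 without replicate 3. Rora, a nuclear receptor that activates clock genes, stood at 0.488, 2.09, 1.11 and 2.96 FPKM against 6.58, 5.88 and 9.65 FPKM (difference -1.99 ± 0.42), and Per1, a repressor of the clock, at 4.22, 10.6, 3.27 and 8.19 FPKM against 17.3, 15.7 and 19.7 FPKM (difference -1.48 ± 0.37). The groups did not overlap for either gene, and the sources used here do not give the time of day at which tissue was taken. The core factors Arntl and Clock were not called (-0.31 and -0.12). Of 24 immediate early genes 6 were higher (25% against 20.1% of all genes) and 4 lower (16.7% against 9.05%), with 3 to 9 higher and 0 to 4 lower in fits without 1 library and 11 higher and 0 lower after rescaling to TPM. Atf3, a stress-induced transcription factor, stood at 8.38, 5.24, 19.4 and 9.05 FPKM against 1.15, 1.64 and 1.19 FPKM (difference 2.45 ± 0.38), and Nr4a1, an orphan nuclear receptor induced by exercise, at 7.27, 75.6, 15.4 and 32.7 FPKM against 103, 132 and 81.02 FPKM (difference -2.13 ± 0.69). Of 32 redox and iron genes 8 were higher (25%) and 5 lower (15.6%), against the same shares over all genes, with 5 to 9 higher and 1 to 5 lower in fits without 1 library and 13 higher and 1 lower after rescaling to TPM. Hmox1, heme oxygenase 1, stood at 85.4, 7.45, 18.7 and 16.6 FPKM against 3.05, 1.73 and 5.69 FPKM, highest by far in replicate 1 (difference 2.57 ± 0.73, exact permutation p = 0.143), and Nqo1, a quinone reductase, fell to 0.934, 3.97, 1.04 and 2.701 FPKM from 11.7, 8.14 and 15.96 FPKM (difference -2.34 ± 0.43). Ftl1, ferritin light chain, rose by 2.82 ± 0.44, with 34.6% of its exon bases shared with another gene. The call of Per1 was lost without replicate 3 or any 1 Uninjected library (adjusted p up to 0.0789), that of Rora without Uninjected replicate 3 (0.0522), that of Nr4a1 without any 1 library except Proliferation Stage replicate 2 (up to 0.138), and that of Hmox1 without any 1 library except Proliferation Stage replicates 1 and 2 (up to 0.111).

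The Differentiation Stage, 7 days after cardiotoxin, was compared directly with the Proliferation Stage for the genes named here, in a fit over all 15 libraries in which 446 of 14576 genes were called (3.06%), 165 higher and 281 lower at 7 days. Both comparisons use the same 4 Proliferation Stage libraries. Of the 145 genes followed here, 30 were called. Many of the 145 were chosen on those libraries, so a move back toward Uninjected was favored in advance. Chrng stood at 1.29, 3.18, 1.295 and 8.78 FPKM in the 4 Differentiation Stage libraries, below each Proliferation Stage library (difference -3.82 ± 0.42, adjusted p = 0.000337). Chrna1 stood at 16.6, 23.1, 17.4 and 34.7 FPKM (difference -2.37 ± 0.30), and Mymk at 6.24, 29.4, 10.6 and 66.2 FPKM (difference -3.09 ± 0.64). Chrng, Chrna1 and Mymk were thus lower at 7 days than at 4 days in 4 of 4 libraries, while Chrne stood at 20.7, 5.34, 14.2 and 7.37 FPKM and Chrnb1 at 46.1, 46.2, 48.04 and 53.5 FPKM, neither lower on average than at 4 days and neither called. Among macrophage genes, Csf1r stood at 0.467, 10.01, 3.95 and 12.2 FPKM (difference -2.61 ± 0.61) and Adgre1 at 1.66, 7.48, 3.44 and 5.39 FPKM (difference -2.36 ± 0.45). Cd68, C1qa, C1qc, Apoe and Lgals3 were not called (adjusted p 0.079 to 0.259 in limma). Cd74, at 42.5, 361, 139 and 244 FPKM, was not called (adjusted p = 0.222). Col3a1 stood at 46.1, 422, 233 and 387 FPKM, overlapped with the Proliferation Stage and was not called either (difference -0.15 ± 0.65, adjusted p = 0.95). Several endothelial genes were higher at 7 days, with Cdh5 at 71.98, 55.6, 65.1 and 50.3 FPKM (difference 1.70 ± 0.22, adjusted p = 0.00104), Pecam1 at 32.4, 26.4, 27.1 and 21.7 FPKM (difference 1.16 ± 0.19) and Erg at 9.53, 6.29, 5.52 and 6.59 FPKM (difference 1.46 ± 0.18), each above all 4 Proliferation Stage libraries. Mstn stood at 2.99, 3.38, 2.701 and 1.07 FPKM, within the range at 4 days (difference -0.03 ± 0.48, adjusted p = 0.99). The number of genes called was 117 in a fit of the 8 libraries alone and 176 to 601 in fits without 1 library.

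**Figure D5:**
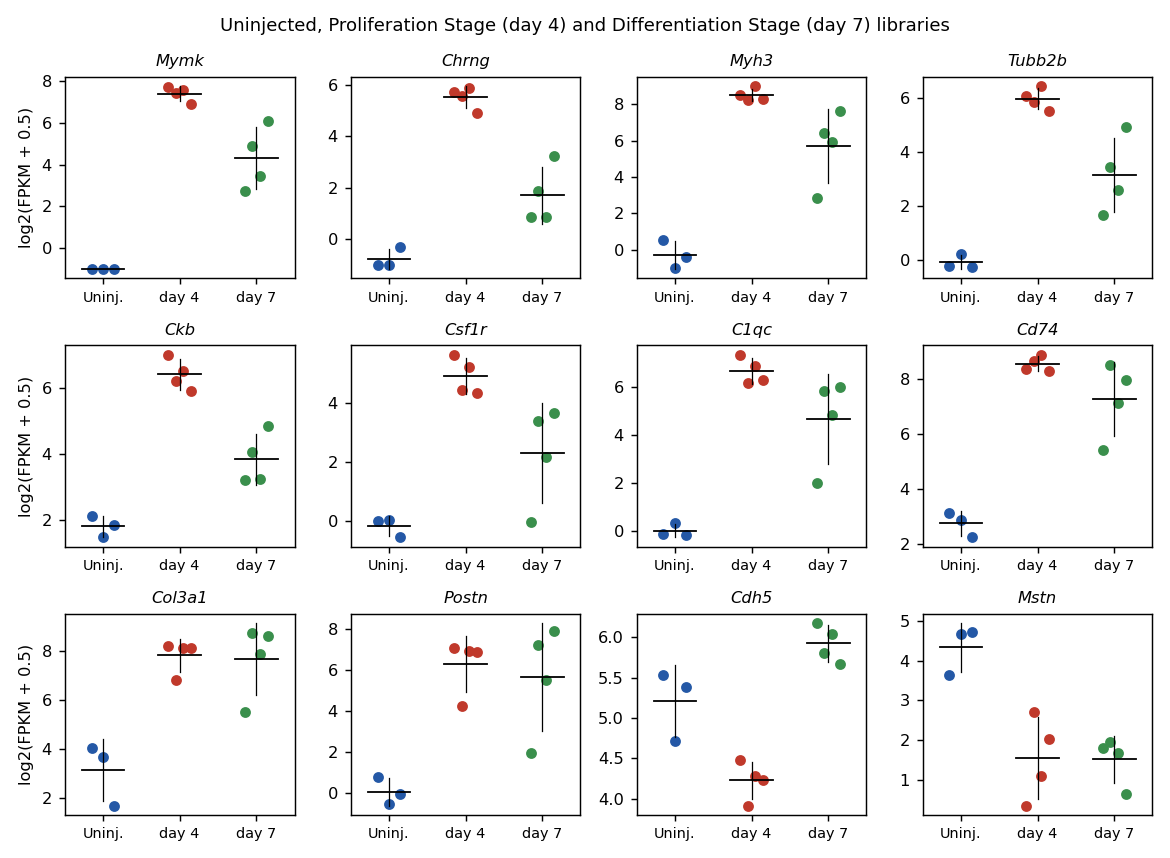
log2(FPKM + 0.5) of 12 genes in each Uninjected (blue), Proliferation Stage (red, day 4) and Differentiation Stage (green, day 7) library, with the group mean as a horizontal bar and 1 SD as a vertical line. Mymk, Chrng and Csf1r are high at day 4 and lower at day 7, Col3a1 and Postn overlap between days 4 and 7, and Cdh5 is lowest at day 4.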

How the data were processed

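Polyadenylated RNA from purified muscle fibers was sequenced as paired ends, and the deposited values are FPKM per gene and library, which the authors computed from their fragment counts against genome build mm10. The sources used here do not give the aligner, the counter, the annotation or the use of strand. The deposited tables also hold the authors' own log2 ratios, p-values and −log10 p-values between stages, which were not used, and 0 per-sample columns were left unmapped.

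Groups were taken from the sample labels, with 4 libraries of the Proliferation Stage, 4 of the Differentiation Stage, 4 of the Maturation Stage and 3 of Uninjected. Fragments per library were recovered from the FPKM of low genes and GENCODE M21 gene lengths. Of 25267 genes above 0, 23762 came out whole in every library within a tolerance of 0.01. The scaling of the deposited FPKM was 0.859 to 1.91 times the fragments in genes. It matched median-ratio factors within 1.73%, so that library totals differ and rescaling to TPM undoes it. These gene lengths may not be those of the authors' annotation, so no count test was run.

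Genes held at 0.5 FPKM or above by 3 or more of the 7 libraries were tested on log2(FPKM + 0.5) in limma 3.58.1 (R 4.3.3, eBayes with trend and robust), with Benjamini-Hochberg adjustment over all genes and a threshold of 0.05. Fold changes on this scale understate low genes. The Differentiation Stage contrast came from 1 limma fit of all 15 libraries. Exact permutation tests were two-sided. Figures and tables used Python 3.11.15, pandas 2.3.3, numpy 2.4.6, scipy 1.17.1 and matplotlib 3.10.9. The fits were tested on simulated data. Nothing in the labels says how the libraries of a group were kept apart beyond subject numbers, so p-values measure the spread between these samples.

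The members and the 49 gene lists were chosen with earlier results of these data known, so lists are described by counts and medians without a test. Named genes were drawn by a rule from those the study names in its RNA results and from cell type markers. The rule also took the 30 largest rises and 30 largest falls among called genes. For these the groups did not overlap and the higher group averaged 10 FPKM or more. From each list it took the 2 largest rises, the 2 largest falls and the 2 most abundant genes. Genes with a known role are named from these, but not all of them. Myod1, Myf5, Mki67 and Pcna, which the study names, are not given here. Of 145 genes followed through the alternatives, 33 lie outside this rule and were chosen after their values were seen, as were the other list members given with values. Alternatives were other pseudocounts, filters, scalings, moderation, weights, sets of libraries, a replicate block, the study's test per gene on FPKM, and each library left out. Symbols and coordinates are from GENCODE M21 on GRCm38, and promoter sequences from RefSeq, where 110 of the 145 genes matched by symbol.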

Additional observations from a re-analysis of the deposited data

Results flagged for a closer look

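In 9 of the 145 genes followed, 1 of the 4 Proliferation Stage libraries lay far outside the other 3 by Dixon's criterion, which chance meets in about 1 in 20 groups. Replicate 1 was far above the others for Spp1 (368 FPKM against 14.2 to 56.9), Hmox1 (85.4 against 7.45 to 18.7), Rrm2 (19.1 against 4.05 to 5.86) and the lysosomal protease gene Ctsd (417 against 228 to 244). Replicate 2 was far below the others for Col3a1 (114 FPKM against 277 to 299), Postn (18.4 against 117 to 138), the progenitor receptor Pdgfra (1.55 against 3.61 to 3.84) and Pecam1 (10.3 against 12.1 to 12.2). Replicate 3 was far above for the slow troponin I gene Tnni1 (282 FPKM against 150 to 166).

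For 30 of the 145 genes the Differentiation Stage differed from the Proliferation Stage in limma, beside 3.06% of all 14576 genes. Many of the 145 genes were chosen on Proliferation Stage values. The same 4 libraries enter this contrast, so a move back toward Uninjected was favored in advance. The differences below are day 7 minus day 4 on the log2 scale. Several fusion and sarcomere genes were lower at 7 days, with Mymk at -3.09, Myh3 at -2.80, Tnnt1 at -2.41, Tnnt2 at -2.82, Tnni1 at -1.98 and Myl4 at -2.48. The fusion gene Mymx (-2.39, adjusted p = 0.0599) and the perinatal myosin Myh8 (-0.30, adjusted p = 0.854) were not called in limma. Genes of the synapse that were lower were Chrng at -3.82, Chrna1 at -2.37, Chrnd at -1.74, Ncam1 at -1.42 and Musk at -1.12. The second isoforms Atp2a2, Ckb and Rpl3 differed by -1.86, -2.57 and -1.39. Phagocyte genes differed by -2.49 for Laptm5, -2.61 for Csf1r, -2.36 for Adgre1, -1.11 for Lgmn and -0.98 for Plin2, which coats lipid droplets. Cd68, C1qa, C1qc, Apoe and Lgals3 were not called. The cytoskeletal genes Tmsb10, Tubb6 and Tubb2b differed by -2.32, -2.20 and -2.82, Igfbp2 by -1.92 and Hes6 by -2.01. Vascular genes moved the other way and were higher at 7 days, with Ptprb at 1.10, Cdh5 at 1.70, Pecam1 at 1.16, Erg at 1.46, Dll4 at 1.20 and the pericyte gene Rgs5 at 1.19.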

How the results depend on the processing

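The counts of calls moved with the test, the scaling and single libraries. Against 2649 higher and 1192 lower genes at 4 days, rescaling to TPM gave 4711 and 169, and the scaling without mitochondrial genes, quantile normalization, array weights, a fit of all 15 libraries and no filter gave 363, 1840, 2124, 2166 and 459 lower. The study's kind of test, per gene on FPKM, gave 151 higher and 112 lower after adjustment and 2261 lower without it. Leaving out 1 library gave 1603 to 3270 higher and 241 to 2177 lower. Of 446 genes that differed between 7 and 4 days, TPM gave 174, the 8 libraries alone 117, and leaving out 1 library 176 to 601. The cause of these shifts was not tested, except that fewer libraries or no shared spread enter several of them.

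Replicate numbers are shared between groups, but deviations from the group means correlated by only 0.037, 0.076 and -0.029 for replicates 1 to 3, so the numbers were not taken as pairs. With the replicate block, 2020 genes were higher and 750 lower at 4 days, and 198 differed between 7 and 4 days.

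Over the 145 genes and 22 alternatives, 2788 of 3190 values kept direction and side of the threshold, 356 lost the call, 42 gained it and 4 changed sign. The sign changes were those of Acta1 (0.57) and Mylpf (0.89) after quantile normalization and of Mylpf (0.036) and Pecam1 (0.29) after rescaling to TPM, and none of the 3 genes was called in the comparison itself. Of the 127 genes called, 10 were called in every alternative, the adjusted test on FPKM included. One fragment in a gene of 1 kb was worth 0.0725 to 0.176 FPKM in the Proliferation Stage and 0.255 to 0.506 FPKM in Uninjected, so that levels near the filter rest on few fragments.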

Other observations

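A few of the largest falls have not been described above. Slc25a25, a mitochondrial carrier of adenine nucleotides and phosphate, stood at 1.26, 10.7, 2.14 and 4.21 FPKM in the Proliferation Stage against 24.5, 43.9 and 29.01 FPKM in Uninjected (difference -3.02 ± 0.57 log2, limma adjusted p = 0.00766). It kept the call without any 1 of the 7 libraries. Gpcpd1, a phosphodiesterase of phospholipid breakdown, stood at 2.57, 20.8, 4.85 and 16.96 FPKM against 52.6, 61.5 and 83.1 FPKM, and lost the call without Uninjected replicates 2 or 3 (adjusted p up to 0.0617). Ddit4l, a relative of the mTOR inhibitor Ddit4, stood at 2.71, 40.4, 9.32 and 24.4 FPKM against 76.3, 113 and 87.6 FPKM, and Vldlr, a lipoprotein receptor, at 0.446, 11.6, 2.52 and 11.6 FPKM against 37.7, 23.8 and 36.1 FPKM. Both separated the groups and both lost the call without replicate 3 or any 1 Uninjected library (adjusted p up to 0.107).

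Lists of fuel use differed in their share of calls. Of 21 tested genes of branched-chain amino acid breakdown, 2 were higher (9.52%, against 20.1% of all genes) and 5 lower (23.8%, against 9.05%). Their median was -1.02, and 0 to 16 were lower when 1 library was left out. Slc7a5, the transporter that brings these amino acids into cells, was one of the higher genes, at 14.8, 3.23, 7.05 and 4.79 FPKM against 0.887, 0.546 and 1.03 FPKM (difference 2.40 ± 0.44). Of 42 genes of fatty acid uptake and oxidation, 2 were higher (4.76%, against 20.1% of all genes) and 0 lower (against 9.05%). Without replicate 2, 16 were lower. One of the higher genes was Plin2, at 40.97, 19.9, 23.9 and 20.02 FPKM against 6.44, 6.48 and 3.93 FPKM (difference 2.09 ± 0.31), and in both cases the groups did not overlap. Of 36 genes of ribosome biogenesis 2 were higher (5.56%, against 20.1% of all genes) and 0 lower, with 12 higher after rescaling to TPM. Of 30 heat shock and chaperone genes 3 were higher (10%, against 20.1%) and 0 lower, with 16 higher after rescaling to TPM and 2 to 5 without 1 library.

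A few abundant muscle transcripts were listed at low levels. Gapdh, a glycolytic enzyme, was listed at 2.14, 52.7, 3.37 and 2.66 FPKM in the Proliferation Stage and 4.78, 2.81 and 4.02 FPKM in Uninjected, where the neighboring enzyme Pgk1 averaged 398 FPKM. Tnnc2, the fast troponin C, was listed at 0 to 1.73 FPKM over the 7 libraries, and 74% of its exon bases are shared with another annotated gene. Within complex IV, mt-Co1 averaged 40211 FPKM in Uninjected against 1049 FPKM for mt-Co2 and 862 FPKM for mt-Co3. The fall of the mitochondrial pseudogene Gm10222 (log2 difference -3.38) and the rise of the pseudogene Gm3788 (6.53) were both called and are uncertain, since how the authors counted reads that match several copies is not given in the sources used here.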
